A study of Mus musculus with 6 samples.

Results

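The cyclin-dependent kinase (CDK) inhibitors of the INK4 and CIP/KIP families are 7 genes, 4 of the INK4 family (Cdkn2a, Cdkn2b, Cdkn2c and Cdkn2d) and 3 of the CIP/KIP family (Cdkn1a, Cdkn1b and Cdkn1c). They were found on the array as every probe set that carries the symbol of 1 of them alone in the platform annotation, which gave 9 probe sets of 45037. INK4 proteins bind Cdk4 and Cdk6 and keep them from pairing with D-type cyclins. CIP/KIP proteins bind complete cyclin-CDK complexes and are best known as inhibitors of Cdk2. In mouse embryonic fibroblasts the products of Cdkn2a, Cdkn2b and Cdkn1a are known for accumulating as the cells are passaged, while RB family proteins and E2F factors carry their effect to the genes of DNA replication and mitosis.

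Total RNA of 3 Zmpste24-/- and 3 WT (Zmpste24+/+) cultures of mouse embryonic fibroblasts of the strain C57BL/6 was hybridised to Affymetrix mouse expression arrays, 1 culture to an array. All cultures were derived from E13.5 embryos and collected at passage 3, and the labels name no drug or other agent. Zmpste24 encodes the protease that matures prelamin A, the precursor of lamin A; its deleted part, the embryos' sex and the number of embryos behind a culture are not given in the labels. Sample titles carry a culture number from 1 to 3 within either genotype. The growth protocol mentions 3 pairs but does not state whether a shared number marks one.

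The cultures numbered 1 stood apart in both genotypes. Their arrays correlated with each other at r = 0.985 across the tested probe sets, and with the other 4 at 0.927 to 0.934. Zmpste24 itself had signals of 365, 182 and 226 in Zmpste24-/- cultures 1, 2 and 3, against 3850, 2249 and 2043 in WT cultures 1, 2 and 3. Xist, the RNA of the inactive X chromosome, was at 4766 to 6669 in the Zmpste24-/- cultures and at 5324 in WT culture 1, but at 69.3 and 43.7 in WT cultures 2 and 3. In numbers 2 and 3, genotype and sex therefore cannot be told apart. All 10 fibroblast markers were among the tested probe sets. Their summed signals were 94764 to 116884 in Zmpste24-/- cultures and 98285 to 118540 in WT cultures. Such a sum follows the brightest of its probe sets. The 10 macrophage markers summed to 12128 in Zmpste24-/- culture 1 and 6392 in WT culture 1, against 1155 to 1802 in the other 4 cultures. Among those markers C1qa, a complement subunit, was at 1008 and 380 in cultures 1 and at 3.18 to 9.02 elsewhere. In a bulk culture, a larger share of cells with a transcript and more of it per cell cannot be told apart.

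Values are linear signals scaled by the authors to 1 level per array; signals of different probe sets are not comparable with each other. Differences were tested on log2(signal + 16), on which a change of a dim probe set is understated, with limma across 27022 probe sets and Benjamini-Hochberg adjustment over all of them, at an adjusted p under 0.05. The second probe set of Cdkn1b was among the dimmest 40% and was not tested, so 8 of the 9 probe sets were. Standard errors (SE) and 95% intervals of log2 differences are those of the limma fit. The replicate block is a version of the genotype fit with the culture number as a term.

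Cdkn2a and Cdkn2b, neighbours on chromosome 4 with no protein-coding gene starting between them in the RefSeq table, had the largest differences between cultures of the 7 genes. Cdkn2a has 2 start sites: from the upstream one comes the mRNA of p19ARF, which stabilises p53, and from the downstream one that of p16INK4a, the CDK inhibitor. The 250 bases before each of these starts and before that of Cdkn2b are shown because they are where transcription of the inhibitors that varied most begins. The sequences are RefSeq's, of build GRCm38.p6 and the minus strand. Capitals mark the GC box GGGCGG and the E2F motifs TTTCCCGC, TTTCGCGC, TTTGCCGC and TTTGGCGC, searched on both strands together with TATAAA and with a p53 core (CATG, 6 bases, CATG).
Cdkn2a, p19ARF start, chr4:89294620-89294869: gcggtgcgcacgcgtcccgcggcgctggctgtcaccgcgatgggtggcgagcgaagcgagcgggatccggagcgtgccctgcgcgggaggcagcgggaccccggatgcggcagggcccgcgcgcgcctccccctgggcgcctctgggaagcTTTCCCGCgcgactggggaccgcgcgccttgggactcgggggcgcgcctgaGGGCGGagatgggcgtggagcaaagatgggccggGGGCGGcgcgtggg
Cdkn2a, p16INK4a start, chr4:89282193-89282442: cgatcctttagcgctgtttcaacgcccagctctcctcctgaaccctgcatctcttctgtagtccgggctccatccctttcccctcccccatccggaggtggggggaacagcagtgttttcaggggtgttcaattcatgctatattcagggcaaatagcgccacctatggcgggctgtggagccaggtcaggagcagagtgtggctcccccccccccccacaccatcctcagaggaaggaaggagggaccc
Cdkn2b start, chr4:89311033-89311282: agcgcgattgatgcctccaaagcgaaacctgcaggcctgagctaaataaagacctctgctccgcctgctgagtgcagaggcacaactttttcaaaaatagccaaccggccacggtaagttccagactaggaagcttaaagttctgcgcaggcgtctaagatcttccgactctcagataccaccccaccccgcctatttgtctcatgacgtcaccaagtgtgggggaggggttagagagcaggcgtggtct

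The p19ARF window held 1 E2F motif, beginning 99 bases before the start, and 2 GC boxes at 48 and 14 bases. The p16INK4a and Cdkn2b windows held none of the letters searched. An E2F motif stood in 1.86% and a GC box in 32.7% of all 32851 such windows. These are matches of letters only, and nothing about binding follows from their presence or absence.

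Cdkn2a, by its single probe set 1450140_a_at, had signals of 2227, 59.7 and 180 in Zmpste24-/- cultures 1, 2 and 3, against 552, 75.7 and 197 in WT cultures 1, 2 and 3. Both cultures numbered 1 were above all others, both numbered 2 were lowest, and the genotypes overlapped. The ending _a_at marks probes shared by transcripts of 1 gene, so p16INK4a and p19ARF mRNA cannot be separated here. The means were 822 ± 1218 in Zmpste24-/- and 275 ± 248 in WT (SD, n = 3 each), a log2 difference of 0.53 (SE 1.29). It did not pass, at a limma adjusted p of 0.9999, nor under the replicate block, at 0.705. Zmpste24-/- exceeded WT 4.03-fold in pair 1, but was at 0.789 and 0.913 times WT in pairs 2 and 3. Without Zmpste24-/- replicate 1 it was -0.87, and in numbers 2 and 3 alone -0.20 (adjusted p = 0.98).

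Across culture numbers Cdkn2a moved more than any other member. Number 1 exceeded the mean of numbers 2 and 3 by 3.11 on the log2 scale (SE 0.408), and it rose there with a limma adjusted p of 4.3e-04. Only 71 of the 27022 tested probe sets, or 0.263%, had a larger difference in that direction. Within Zmpste24-/- the difference was 4.20 and within WT 2.02, each from 1 culture against 2. Leaving out WT replicate 1 or Zmpste24-/- replicate 1 gives these same values by construction, so it is no separate check. Culture 3 was also above culture 2 in both genotypes, by 3.01-fold in Zmpste24-/- and 2.60-fold in WT.

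Whether the genotype difference of Cdkn2a in number 1 differed from that in numbers 2 and 3 was tested as an interaction. It was 2.18 on the log2 scale (95% interval 0.38 to 3.98), with an unadjusted p of 0.0227 and a limma adjusted p of 0.955, so it did not pass. This test passed for 0.0259% of all probe sets (7 of 27022) and for 0 of the 8 tested CDK inhibitor probe sets. At an unadjusted p under 0.05 it was 1 of the 8, that of Cdkn2a, against 4.59% of all. Without WT replicate 2 it was 2.79 for Cdkn2a and passed (adjusted p = 0.0476). Over the other alternatives the adjusted p lay between 0.188 and 0.9999. In pair 1, where Cdkn2a was higher in Zmpste24-/-, all 9 tested macrophage markers were higher too, by a median of 0.84 on the log2 scale. In pair 2, where Cdkn2a differed by -0.28, 3 were higher and 6 lower (median -0.24). In pair 3, where Cdkn2a differed by -0.12, all 9 were lower (median -0.36). By number, 8 of the 9 rose and 0 fell (median 1.5), beside 25.4% and 22% of all tested probe sets. The part of the macrophage markers in the Cdkn2a values was not tested. By Xist, pair 1 joins cultures that were both high, while pairs 2 and 3 set high Zmpste24-/- cultures against low WT cultures, and Xist is among the 7 probe sets that passed. In the interaction, and in the number difference within WT, culture number and sex cannot be told apart. The number difference over both genotypes includes WT and shares this limit. Within Zmpste24-/- Xist was high in all 3 cultures, and the Cdkn2a difference of 4.20 there is 1 culture against 2.

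Cdkn2b, which encodes p15INK4b, a target of TGF-beta signalling, had signals of 6291, 2726 and 3076 in Zmpste24-/- cultures 1, 2 and 3, against 6065, 3024 and 2769 in WT cultures 1, 2 and 3. Cultures 1 of both genotypes were above all others by about the same amount, and the genotypes overlapped. Number 1 exceeded numbers 2 and 3 by 1.09 (SE 0.0768, limma adjusted p = 2.0e-05), which 7.21% of tested probe sets surpassed. Between genotypes Cdkn2b differed by 0.02 (adjusted p = 0.9999; under the block, 0.955). The 95% interval with the block ran from -0.15 to 0.19, the narrowest interval among the INK4 genes.

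Cdkn2c and Cdkn2d, which encode p18INK4c and p19INK4d, differed less between culture numbers than Cdkn2a and Cdkn2b. Cdkn2c had 1463, 1363 and 1396 in Zmpste24-/- cultures 1, 2 and 3, against 1850, 1379 and 1149 in WT cultures 1, 2 and 3. The Zmpste24-/- cultures lay within the range of the WT cultures. Number 1 differed by 0.32 and did not pass (adjusted p = 0.067), with 0.08 within Zmpste24-/- and 0.55 within WT. Without Zmpste24-/- replicate 1 it was 0.55, the WT value, and without Zmpste24-/- replicate 3 it was 0.43 and passed (adjusted p = 0.0229). Cdkn2d had 1069, 1366 and 1375 in Zmpste24-/- cultures 1, 2 and 3, against 1299, 1362 and 1481 in WT cultures 1, 2 and 3. It was the 1 member whose number 1 cultures were both below the other 4, by 0.24 on the log2 scale, with an adjusted p of 0.0649 that did not pass. After quantile normalization and median centring the difference was -0.27 and -0.35 and passed, at adjusted p of 0.0434 and 0.0449, and without WT replicate 2 it was -0.29 and passed at 0.0499. Between genotypes Cdkn2c and Cdkn2d differed by -0.02 and -0.13, both with an adjusted p of 0.9999.

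**Figure D1:**
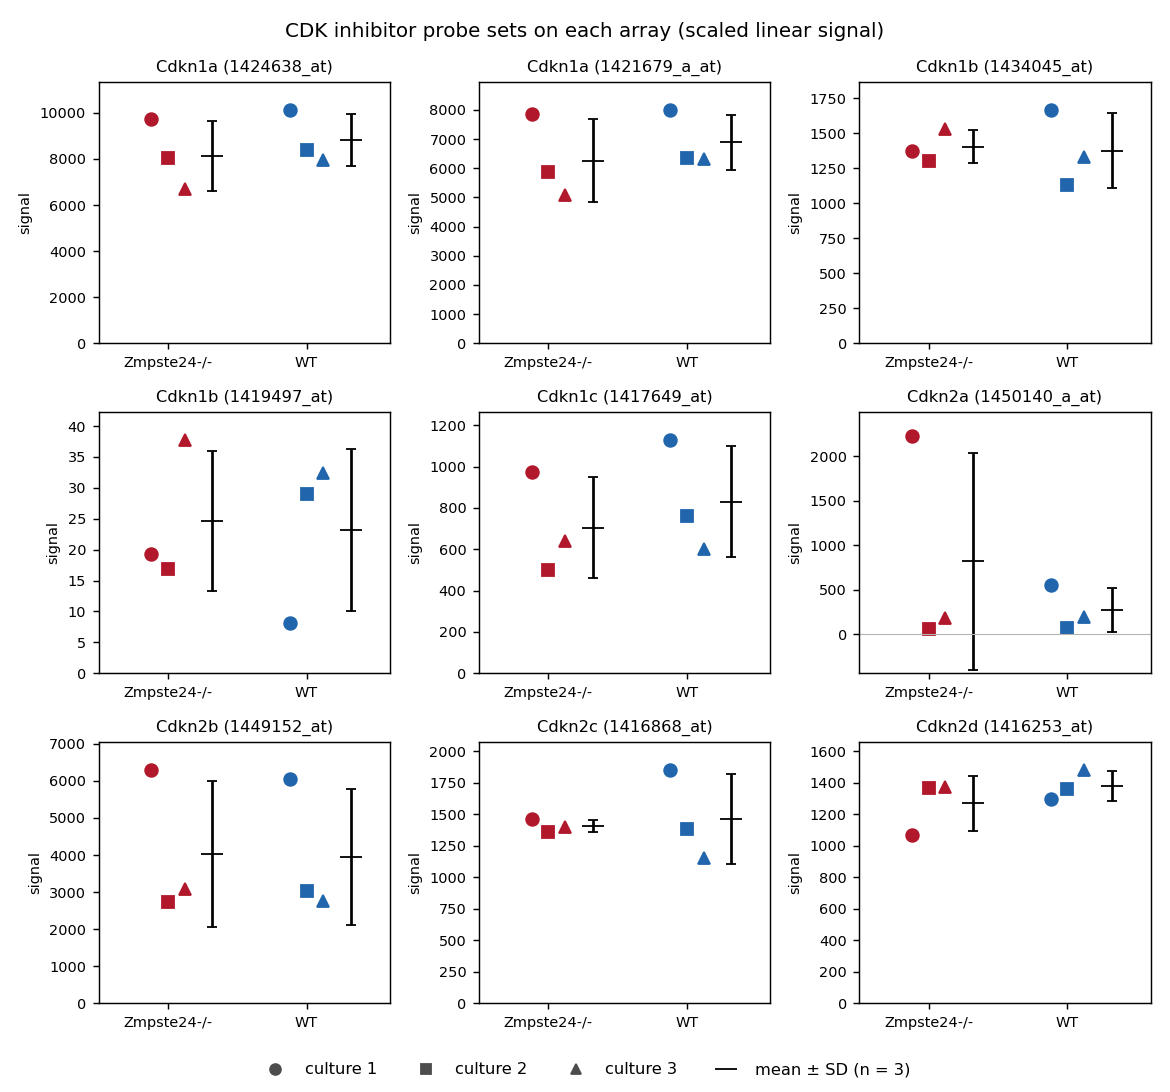
Signal of each CDK inhibitor probe set (y axis, scaled linear signal from 0, extended below 0 where an error bar reaches there) in Zmpste24-/- (left, red) and WT (right, blue) cultures, with symbols for cultures 1, 2 and 3 and the mean ± SD of 3 cultures beside them. For Cdkn2a the culture 1 points stand at 2227 and 552 while the other 4 lie between 59.7 and 197, and for Cdkn2b the culture 1 points stand at 6291 and 6065 in the 2 genotypes.

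Of the CIP/KIP genes, Cdkn1a encodes p21, the inhibitor induced by p53. Its upstream start is shown because that window holds the p53 core searched for, in capitals, which 0.49% of all windows hold. The core begins 48 bases before the start. The sequence is RefSeq's, of build GRCm38.p6 and the plus strand, and the window of the downstream Cdkn1a start held 2 GC boxes and no such core.
Cdkn1a, upstream start, chr17:29090729-29090978: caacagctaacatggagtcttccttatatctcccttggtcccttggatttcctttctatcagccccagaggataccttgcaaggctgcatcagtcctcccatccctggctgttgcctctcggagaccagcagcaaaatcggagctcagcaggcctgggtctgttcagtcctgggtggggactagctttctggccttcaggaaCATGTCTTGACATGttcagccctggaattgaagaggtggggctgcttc

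The probe set 1424638_at of Cdkn1a had signals of 9719, 8020 and 6688 in Zmpste24-/- cultures 1, 2 and 3, against 10109, 8372 and 7969 in WT cultures 1, 2 and 3. The probe set 1421679_a_at had 7845, 5870 and 5076 in Zmpste24-/- and 7984, 6359 and 6306 in WT, in the same order. In both probe sets Zmpste24-/- was below WT in each same-numbered pair, by at most 1.24-fold, which was smaller than the spread within a genotype. Of all tested probe sets 16% were lower in every pair. The log2 differences were -0.12 and -0.15, and neither passed in limma (adjusted p = 0.9999 for both; under the block, 0.565 and 0.554). Unadjusted, the p under the block were 0.0562 and 0.0478. The 95% intervals with the block ran from -0.25 to 0.0 and from -0.30 to -0.0, the second just excluding 0. In numbers 2 and 3 alone 1421679_a_at differed by -0.21 (limma unadjusted p = 0.0425, adjusted p = 0.809). Without Zmpste24-/- replicate 3 the differences were 0.01 and -0.01.

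Cdkn1a was higher in cultures 1 of both genotypes. Number 1 exceeded numbers 2 and 3 by 0.36 in 1424638_at and 0.43 in 1421679_a_at, and Cdkn1a rose there with limma adjusted p of 0.00142 and 0.00124. Differences larger than these in that direction were found in 29.9% and 26.3% of all tested probe sets. For 1424638_at the call was lost with median centring (0.25, adjusted p = 0.0621) and with no intensity trend (adjusted p = 0.0541).

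Cdkn1c encodes p57 and is expressed from the maternal allele of an imprinted domain. It had signals of 975, 498 and 640 in Zmpste24-/- cultures 1, 2 and 3, against 1128, 759 and 603 in WT cultures 1, 2 and 3. Cultures 1 were above the other 4, and below that the order of numbers 2 and 3 differed between the genotypes. Number 1 exceeded numbers 2 and 3 by 0.75 (SE 0.142), with 0.77 within Zmpste24-/- and 0.72 within WT, and Cdkn1c rose there with a limma adjusted p of 0.003. Between genotypes it differed by -0.24 (adjusted p = 0.9999; under the block, 0.624), at signals of 0.656, 0.864 and 1.06 times WT in pairs 2, 1 and 3.

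Cdkn1b encodes p27, whose level is set largely by protein turnover. Its brighter probe set, 1434045_at, had 1376, 1301 and 1533 in Zmpste24-/- cultures 1, 2 and 3, against 1663, 1133 and 1328 in WT cultures 1, 2 and 3. No culture number and no genotype stood apart from the rest. The genotype difference was 0.04 (adjusted p = 0.9999; under the block, 0.928), and the number difference was 0.20 (adjusted p = 0.202). Leaving out Zmpste24-/- replicate 1 gave a number difference of 0.43, that within WT, and leaving out WT replicate 1 gave -0.04, that within Zmpste24-/-. The dim probe set 1419497_at lay between 8.14 and 37.7 on all 6 arrays and was not tested.

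Taking the 8 tested probe sets by genotype, 0 passed in limma (0% of all probe sets passed) and 0 under the replicate block (0.0185% of all, 5 probe sets, all lower). At an unadjusted p under 0.05 there were 0 of 8, against 349 of 27022 or 1.29% of all, and under the block 1 of 8, against 8.99%. Their log2 differences lay between -0.24 and 0.53 with a median of -0.07, beside a median of -0.005 over all tested probe sets. Without a block the deleted gene did not pass either: Zmpste24 was lower in Zmpste24-/- by 9.03-fold to 12.4-fold in the 3 pairs, at a limma adjusted p of 0.987, and 4.0e-05 under the block. An adjusted p near 1 from that fit is therefore no measure of how alike the genotypes were. In none of the 9 probe sets were the genotypes without overlap, as they were in 5.24% of all tested ones. With the block, the 95% intervals of Cdkn1a, Cdkn1b, Cdkn2b, Cdkn2c and Cdkn2d stayed between -0.33 and 0.30. Those of Cdkn1c and Cdkn2a were wider, at -0.55 to 0.07 and -0.36 to 1.41. In numbers 2 and 3 alone, without the arrays that stood apart, 0 of the 8 passed and the differences lay between -0.26 and 0.20.

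**Figure D2:**
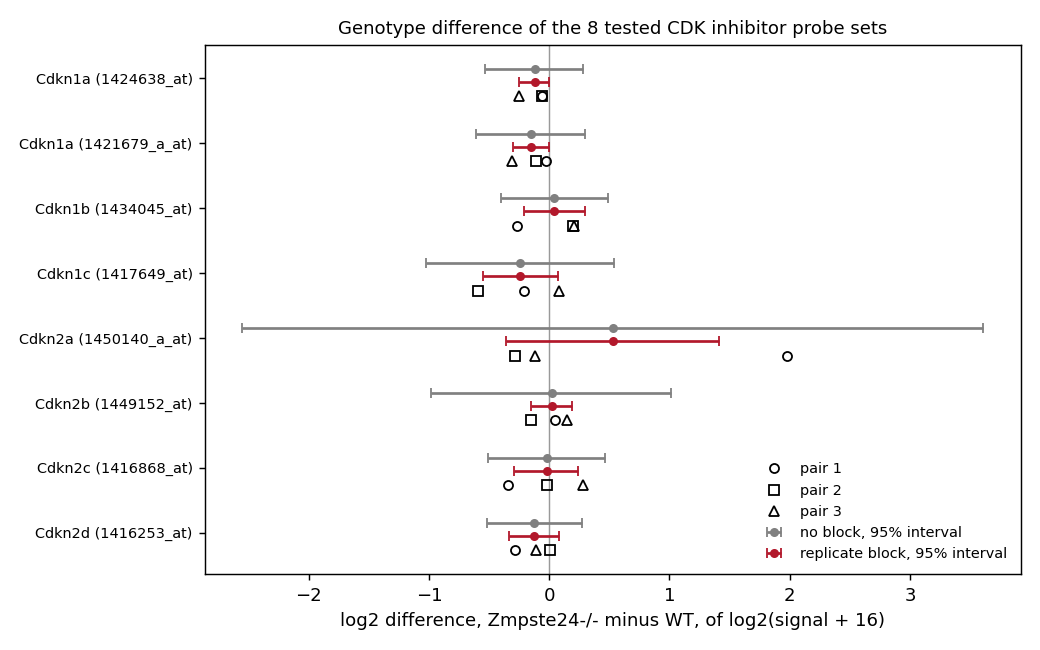
Log2 difference, Zmpste24-/- minus WT, of log2(signal + 16) for the 8 tested probe sets (x axis), as limma estimates with 95% intervals without a block (grey) and with the replicate block (red), and as the difference in each same-numbered pair (open symbols). All intervals without a block include 0, and with the block only that of Cdkn1a (1421679_a_at) just excludes it. The pair 1 point of Cdkn2a stands apart at 1.98.

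By culture number, 5 of the 8 tested probe sets passed, all higher in number 1: those of Cdkn2a, Cdkn2b, Cdkn1c and both of Cdkn1a. Of the whole array 47.4% passed (12800 of 27022), with 25.4% higher and 22% lower in number 1. In 6 of the 8 both cultures numbered 1 were above all others, as in 31.2% of tested probe sets, and in 1 both were below, as in 27.2%. The median number difference was 0.39, beside 0.038 over all tested probe sets. These counts come from a comparison chosen with it known that the cultures numbered 1 stood apart. What sets those cultures apart is not given in the labels. In WT, culture 1 was also the only one high in Xist, so number and sex cannot be told apart there.

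**Figure D3:**
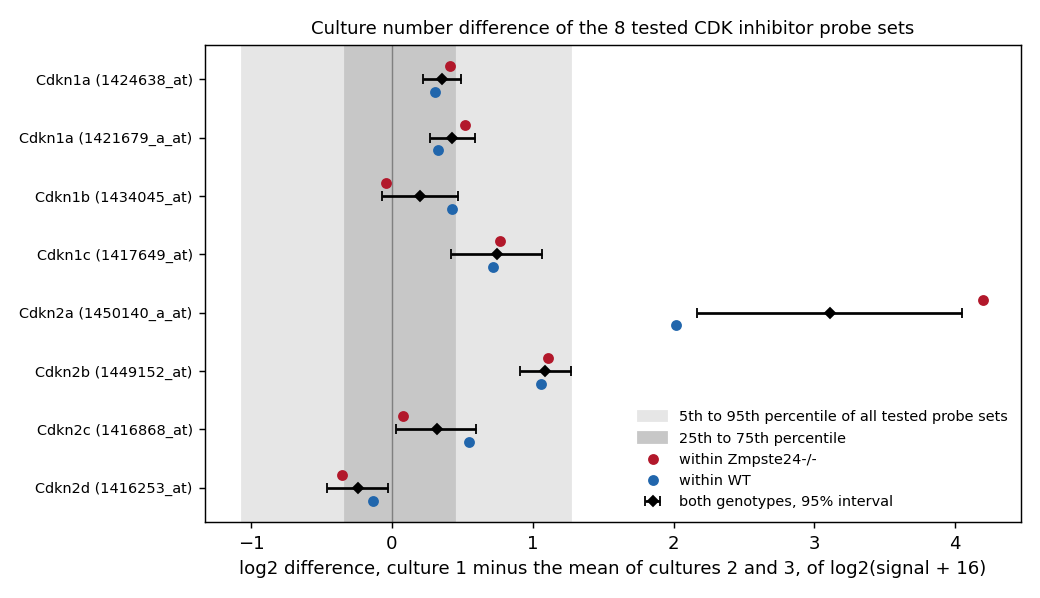
Log2 difference of culture 1 minus the mean of cultures 2 and 3, of log2(signal + 16), for the 8 tested probe sets (x axis), with limma's 95% interval over both genotypes (black) and the value within Zmpste24-/- (red) and within WT (blue). Grey bands give the middle 50% and 90% of all tested probe sets; Cdkn2a at 3.11 lies beyond the 95th percentile of 1.27, and Cdkn2b at 1.09 lies inside it.

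The partners and readouts of the inhibitors were read from lists, each gene by its brightest tested probe set. All list counts by number that follow stand beside 22% of all tested probe sets that fell and 25.4% that rose. Of the 5 kinases, 4 fell in number 1 and 0 rose. Cdk1, the mitotic kinase, had 2650, 7216 and 6294 in Zmpste24-/- cultures 1, 2 and 3, against 2646, 6240 and 6639 in WT cultures 1, 2 and 3, a number difference of -1.31 (adjusted p = 7.1e-06). Cdk4 and Cdk6, the targets of the INK4 proteins, fell by 0.49 and 0.51, Cdk2 fell as well, and Cdk7 differed by 0.03 and did not pass. Of 8 tested cyclins 4 fell and 3 rose. The S-phase and mitotic cyclins Ccna2 and Ccnb2 fell by 2.64 and 1.96 and the G1 cyclin Ccne2 fell by 1.56, while the D-type cyclin Ccnd1 rose by 0.49.

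All 14 proliferation genes fell in number 1, by a median of 2.09 on the log2 scale. Mki67, the marker of cycling cells, had 493, 2923 and 2592 in Zmpste24-/- cultures 1, 2 and 3, against 486, 2387 and 2561 in WT cultures 1, 2 and 3. In pair 1, where Cdkn2a was 4.03-fold higher in Zmpste24-/-, Mki67 was at 493 in Zmpste24-/- and 486 in WT. Mcm2, a subunit of the replicative helicase, was at 325 in Zmpste24-/- and 809 in WT in that pair, 2.49-fold lower in Zmpste24-/-, with an interaction of -1.12 that did not pass (unadjusted p = 8.3e-04, limma adjusted p = 0.318). The other subunits of that helicase in the list were at 0.904 to 1.11 times WT in pair 1. Over the 14 genes the median log2 difference between genotypes was -0.03 in pair 1, 0.16 in pair 2 and -0.02 in pair 3. Of 13 pocket proteins and E2F factors, 7 fell and 4 rose in number 1. E2f7 and E2f8, repressors of the E2F family, fell by 2.54 and 1.88, and Rbl2, the pocket protein p130 of resting cells, rose by 1.41.

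Among 11 tested genes of inhibitor turnover 6 fell and 1 rose in number 1. Skp2, which marks p27 and p21 for degradation, had 410, 1111 and 1045 in Zmpste24-/- cultures 1, 2 and 3, against 468, 885 and 999 in WT cultures 1, 2 and 3, and fell by 1.17. Its cofactor Cks1b fell by 0.32. Of 19 tested repressors of the Cdkn2a locus, 6 fell and 4 rose, beside 22% and 25.4% of all tested probe sets. Ezh2, the methyltransferase of Polycomb complex PRC2, had 668, 1962 and 1863 in Zmpste24-/- cultures 1, 2 and 3, against 522, 1377 and 1652 in WT cultures 1, 2 and 3. It fell in number 1 (adjusted p = 1.5e-05). Bmi1, the PRC1 subunit first known for repressing Cdkn2a, differed by 0.20 and did not pass (adjusted p = 0.0917), Suz12 fell by 0.57, and Cbx6 rose by 1.14. Among 17 activators and regulators of the inhibitors 7 fell and 5 rose. Ets1 and Myc fell by 1.35 and 1.36, Foxo3, an activator of Cdkn1b, rose by 1.06, and the p53 target Mdm2 rose by 0.35.

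**Figure D4:**
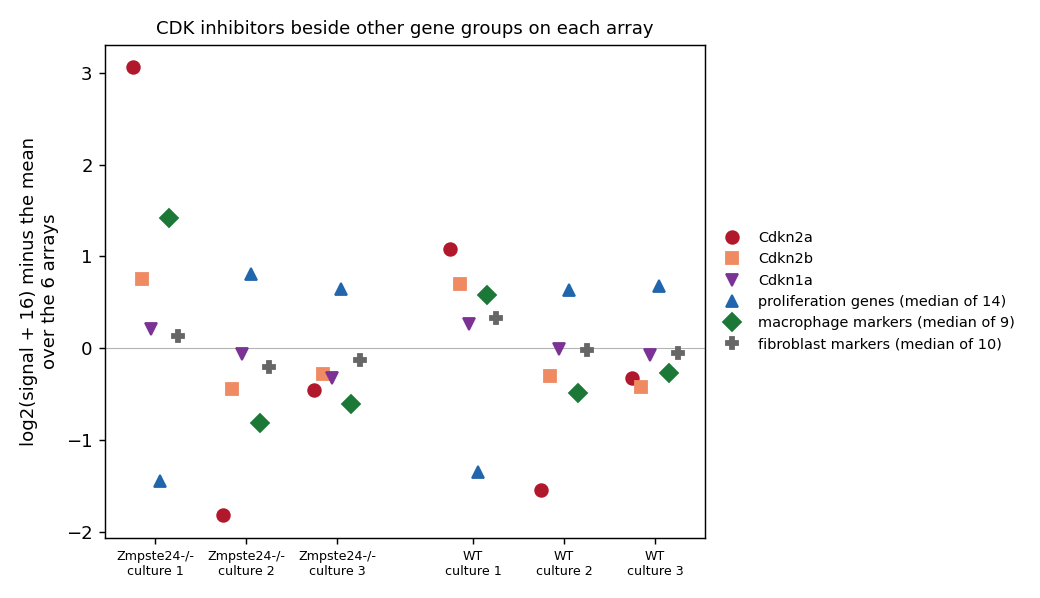
Log2(signal + 16) minus its mean over the 6 arrays (y axis) in each culture, for Cdkn2a, Cdkn2b and Cdkn1a and for the median of 14 proliferation genes, 9 macrophage markers and 10 fibroblast markers. In both cultures numbered 1 the inhibitors and the macrophage markers lie above 0 and the proliferation genes below it, and Cdkn2a is lowest in both cultures numbered 2.

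By genotype, 0 genes of these lists passed with or without the replicate block, and list medians lay between -0.01 and 0.06 for the 7 lists of partners, turnover, regulators and readouts. By smallest unadjusted p with the block, the repressor gene Zbtb7a differed by -0.50 (unadjusted p = 0.00185, adjusted p = 0.316) and Ezh2 by 0.34 (0.00637 and 0.407). Ccnd1 differed by -0.18 (0.0172 and 0.489) and Bmi1 by 0.22 (0.0249 and 0.505).

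Genes next to the inhibitors did not move with them throughout. Of the 4 tested neighbours of Cdkn2a and Cdkn2b, Mtap and Elavl2 fell in number 1 by 0.29 and 2.49, Klhl9 rose by 0.53, and Focad differed by 0.39 and did not pass (adjusted p = 0.0512). In the imprinted domain of Cdkn1c, 4 of 8 tested genes rose in number 1 and 0 fell. Tspan32, Tssc4, Osbpl5 and Cd81 rose by 0.81, 0.43, 0.27 and 0.16, against 0.75 for Cdkn1c. The antisense RNA Kcnq1ot1, which silences the paternal copy of the domain, differed by 0.07 between numbers and by 0.47 between genotypes, and passed in neither.

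The genes most like each inhibitor were sought among 12422 others as those with the smallest root mean square difference of centred log2 values over the 6 arrays. For Cdkn2a these were Sfrp4, a secreted Wnt regulator, at 0.43, Srgn, which encodes the proteoglycan serglycin, at 0.48, and Igf1, a growth factor, at 0.50. Sfrp4 had 2237, 72 and 121 in Zmpste24-/- cultures 1, 2 and 3, against 576, 129 and 123 in WT cultures 1, 2 and 3, so that it too was highest in Zmpste24-/- culture 1. For Cdkn2b the nearest were Stx16 at 0.02, with Zscan18 and Cbx6 at 0.04. The nearest to Cdkn1a were Josd2, Exosc4 and Ndufaf5 and to Cdkn1c Epm2aip1, Acot6 and Ubr2, at 0.02 to 0.07. Mpdz, Tspan2 and Disp1 lay nearest to Cdkn1b, Mecom, Ldah and Tab1 to Cdkn2c, and Slc34a2, Acd and Unc45a to Cdkn2d, at 0.02 to 0.05. The SD of the log2 values over the 6 arrays was 1.82 for Cdkn2a, 0.57 for Cdkn2b and 0.16 to 0.43 for the other 5 genes.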

How the data were processed

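The deposited table holds 1 linear intensity per probe set for each of 6 arrays. Per the submitters' processing notes the authors used GCOS (the Affymetrix scanner program), for which neither version nor settings were found in the labels. Each array has a mean of 500 after trimming 2% from each end, so a change in total RNA per cell cannot be seen. Median signals were 56.3 to 70.5, and the number of arrays limits the precision. Of 45101 probe sets, 64 controls were left out. Names came from the platform annotation (34945 probe sets with 1 symbol, 932 with several, 9160 not listed), checked by gene identifier against RefSeq names of GRCm38.p6 (34741 matched). No build is named in the labels, so only the printed sequences carry coordinates, those of RefSeq's own build; no window of Cdkn1c was used.

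Values were analysed as log2(value + 16), without the dimmest 40% (mean signal under 39.4), in R 4.3.3 with limma 3.58.1 and an intensity trend. The fits were tested on simulated data with independent noise. That simulation lacked the wide culture number difference of these data, so it does not bear on the fits in its presence. The genotype fit had no block. The number fit had terms for genotype and each number, and the interaction fit terms for genotype, number 1 and their product. Deviations from group means correlated at 0.83, 0.59 and 0.57 between same-numbered cultures, over the limit of 0.1 for pairing, which the labels' mention of pairs also bears on; cultures 2 and 3 correlated across numbers too, at 0.55 and 0.49. Nothing says the cultures came from separate embryos, so p-values measure the spread between these samples. In the number fit the difference between numbers 2 and 3 is outside the error, which holds only what the genotypes do not share. With number 1 as 1 term it is inside the error, and the limma adjusted p of Cdkn2a was then 7.3e-04. Number 1 itself has no second such number. Members, lists, the number comparison and the interaction were chosen with earlier results of these data known. Cdkn3, given in the closing section, lies outside the rule for named genes. By that rule, named were all members, up to 4 genes of a list by smallest p of the blocked genotype term and up to 4 by that of the number term, and the 3 nearest patterns of each member, without predicted genes; Zmpste24 and Xist were always included, Eif2s3y and Kdm5d followed the opposite pattern to Xist. Lists of endothelial and epithelial markers are given in the closing section. Alternatives were pseudocounts of 1 and 64, no filter or 60%, quantile normalization, median centring, no trend, array weights, blocks, numbers 2 and 3 alone and each array left out. Figures were drawn with matplotlib 3.10.9.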

Additional observations from a re-analysis of the deposited data

How the results depend on the processing

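Under every alternative run, 0 CDK inhibitor probe sets passed by genotype. The genotype count over all probe sets was 0, and 5 with the replicate block, 11 with a 2-level block that joined numbers 2 and 3 (an alternative added once the data had been seen), 20 in numbers 2 and 3 alone, 1 with array weights, and 0 to 4 with 1 array left out. The replicate block changed no call of a CDK inhibitor. Between genotypes, Cdkn2c was 0.12 with array weights and 0.13 in numbers 2 and 3 alone, where Cdkn2a was -0.20. Array weights gave -0.24 and -0.28 for Cdkn1a (1424638_at and 1421679_a_at), 0.25 for Cdkn1b, -0.13 for Cdkn1c, 0.30 for Cdkn2a, 0.05 for Cdkn2b and -0.06 for Cdkn2d, none of which passed. With 1 array left out the ranges were -0.26 to 0.01 and -0.32 to -0.01 for Cdkn1a (1424638_at and 1421679_a_at), -0.09 to 0.19 for Cdkn1b, -0.50 to 0.00 for Cdkn1c, -0.87 to 1.57 for Cdkn2a, -0.35 to 0.37 for Cdkn2b, -0.18 to 0.16 for Cdkn2c and -0.19 to -0.01 for Cdkn2d. By number, 4 to 6 of the 8 passed where both number 1 arrays were kept. The 4 came with no intensity trend, where 10791 of all 27022 probe sets passed. Quantile normalization was among the settings with 6, and there 12711 of 27022 passed. With 1 array left out the number difference of Cdkn1b ranged from -0.04 to 0.43. Median centring moved all number differences by -0.11 and all interactions by -0.12. The interaction passed for 7 probe sets, and for 2 with a pseudocount of 1, 0 with no filter (2310 at an unadjusted p under 0.05 in limma), 16 without the dimmest 60%, 19 with median centring, 0 with no intensity trend (1441 unadjusted), and 25 to 51 with 1 array left out. Of the CDK inhibitors 0 to 1 passed it then. It was -0.02 for Cdkn1a (1424638_at), -0.07 for Cdkn1c and -0.06 for Cdkn2b with median centring, and -0.03 to 0.23, -0.13 to 0.22 and -0.04 to 0.14 for them with 1 array left out. Leaving out a number 1 array left no interaction to fit. The causes were not tested. With 1 culture per number and genotype, a Cdkn2a difference in number 1 has no replicate of its own.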

Other observations

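Of 6 epithelial markers 4 were tested and 2 passed by culture number. On the log2 scale the simple-epithelium keratins Krt19 and Krt18 fell by 4.68 and 2.40 in number 1. Krt19 had 49.7, 2514 and 2038 in Zmpste24-/- cultures 1, 2 and 3, against 83.8, 2026 and 1723 in WT cultures 1, 2 and 3. The 6 epithelial markers summed to 599 and 562 in cultures 1 of Zmpste24-/- and WT, and to 2967 to 3415 in the other 4 cultures. The 6 endothelial markers summed to 632 to 814 in Zmpste24-/- cultures and 479 to 599 in WT cultures, and of the 3 tested, Kdr, a VEGF receptor, fell by 0.83 in number 1. Of 10 tested fibroblast markers 5 rose and 2 fell in number 1, beside 25.4% and 22% of all tested probe sets. Among those that rose were the matrix proteoglycans Lum and Dcn, by 3.84 and 2.91. Lum had 7892, 292 and 483 in Zmpste24-/- cultures 1, 2 and 3, against 6548, 681 and 577 in WT cultures 1, 2 and 3. In number 1, where Cdkn2a and Cdkn2b rose, Krt19, Krt18 and Kdr fell while Lum and Dcn rose. These genes do not stand for their whole lists. Of the tested markers, 1 of 4 epithelial and 1 of 3 endothelial were higher in number 1, without passing. The endothelial sums did not follow the culture number. The part of these groups in the Cdkn2a and Cdkn2b values was not tested.

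Cdkn3, a phosphatase that acts on Cdk2 and shares the symbol's stem without belonging to either family, was chosen after its values were seen. It had 154, 838 and 763 in Zmpste24-/- cultures 1, 2 and 3, against 159, 706 and 729 in WT cultures 1, 2 and 3, and so ran with the proliferation genes and opposite to Cdkn2a and Cdkn2b.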
